A study of Mus musculus with 4 samples.

Results

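The glycolysis and hypoxia response genes are a set of 35 genes chosen by symbol, with earlier results of these data known. All 35 were found once each among the 34745 genes of the deposited table. They comprise 19 enzymes and transporters that carry glucose to lactate and 16 genes of the response to low oxygen. The filter on low counts kept all 35 of them among the 12418 genes tested. RNA sequencing had been performed on primary mouse macrophages, grown from bone marrow per the study's text, of the genotypes WT and G3bp1mac-/- (KO), with 2 libraries per genotype, numbered 1 and 2 in each. The controls, as the study describes them, carried a floxed G3bp1 gene (G3bp1 f/f), and KO mice also carried a Cre recombinase driven by Lyz2, a promoter active in macrophages and in other myeloid cells such as neutrophils. G3BP1 is the scaffold protein on which stress granules, cytoplasmic condensates of mRNA and protein, assemble. The cells were grown in DMEM with serum, the labels give no stress, oxygen or allergen treatment for these libraries, and they do not give the age of the mice or say whether the libraries of a genotype came from separate mice. The p-values therefore measure the spread between these libraries, which may be technical.

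Glycolysis splits glucose into pyruvate, and lactate dehydrogenase turns pyruvate into lactate, which leaves the cell through a monocarboxylate transporter. Macrophages lean on this route when they are activated or short of oxygen. When oxygen falls, the prolyl hydroxylases of the EGLN family stop marking hypoxia-inducible factor (HIF) for destruction, and HIF binds a short element near its target genes. These targets include most enzymes of glycolysis, as well as genes of mitophagy, blood vessel growth and collagen modification, and the EGLN genes themselves.

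The core letters of the HIF element, ACGTG or GCGTG on either strand, were searched in the 250 bases upstream of the RefSeq start nearest to each gene's 5′ end in the deposited table (RefSeq, GRCm38.p6). Such a window was found for 33 of the 35 members, Ero1l through its RefSeq synonym, and none was matched for Bnip3l and Ndrg1. Of these 33 windows, 25 (75.8%) held at least 1 match, beside 43.2% of all 18557 windows read in the same way. ACGTG alone was in 17 of the 33 windows (51.5%), beside 17.5% of all. The windows of the members also held more CG dinucleotides, which every match contains, with a median of 16 against 9 over all windows. A match describes these letters only and is not a binding site. The windows of 4 members are printed, those of the 3 genes with the smallest p in the comparison of the genotypes and that of Ankrd37, which had the lowest log2 fold change. Mif and Tpi1, next by p, had 0 matches in their windows. Capitals mark the matched letters, and CACGTG is read as a match on both strands and is also the core of the E-box. The windows lie at chr8:45999851-46000100 (minus strand) for Ankrd37, chr7:138909507-138909756 (minus strand) for Bnip3, chr7:46845554-46845803 (plus strand) for Ldha, whose RefSeq start lies 4329 bases inside the gene as the deposited table draws it, and chrX:106186850-106187099 (plus strand) for Pgk1.
Ankrd37: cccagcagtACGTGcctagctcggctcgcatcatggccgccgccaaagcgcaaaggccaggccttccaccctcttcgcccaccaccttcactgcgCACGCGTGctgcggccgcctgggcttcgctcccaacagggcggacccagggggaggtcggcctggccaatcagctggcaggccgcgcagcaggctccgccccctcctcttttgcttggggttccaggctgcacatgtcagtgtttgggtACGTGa
Bnip3: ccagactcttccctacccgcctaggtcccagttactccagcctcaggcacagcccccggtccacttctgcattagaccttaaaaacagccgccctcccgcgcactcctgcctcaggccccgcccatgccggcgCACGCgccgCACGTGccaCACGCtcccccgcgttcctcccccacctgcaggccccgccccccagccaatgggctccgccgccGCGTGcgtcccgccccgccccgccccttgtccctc
Ldha: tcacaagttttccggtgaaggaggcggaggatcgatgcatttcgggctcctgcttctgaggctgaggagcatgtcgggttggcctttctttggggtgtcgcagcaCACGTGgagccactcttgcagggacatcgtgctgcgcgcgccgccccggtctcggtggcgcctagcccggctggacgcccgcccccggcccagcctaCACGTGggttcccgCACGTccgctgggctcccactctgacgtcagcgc
Pgk1: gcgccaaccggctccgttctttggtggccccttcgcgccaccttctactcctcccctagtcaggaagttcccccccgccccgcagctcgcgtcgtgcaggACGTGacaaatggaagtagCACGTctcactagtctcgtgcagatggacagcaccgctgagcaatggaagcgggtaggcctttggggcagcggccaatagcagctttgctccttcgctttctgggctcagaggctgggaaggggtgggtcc
Bnip3 and Ldha each held 5 matched positions, Ankrd37 held 4 and Pgk1 held 2.

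The libraries held between 16724241 and 19747909 counts, so that a count of 0 leaves room for a level as high as 0.152 to 0.188 CPM, depending on the library (counts scaled to library size with TMM factors), by counting error alone. The targeted gene G3bp1 had 1691 and 2875 counts in the WT libraries, against 1307 and 2296 in those of KO, 65.6% of the WT level (edgeR adjusted p = 0.904). It was lower in KO within both numbers, with log2 ratios of -0.57 and -0.63, while number 2 exceeded number 1 by 0.79 in WT and 0.73 in KO. Whole-gene counts include reads outside the deleted part, so they check the labels only in part, and each direction given for KO rests on the labels. All 15 macrophage markers were tested, with a summed level of 42330 to 46830 CPM in WT and 34050 to 40510 CPM in KO. Levels of other cell types moved with the genotype. The summed level of 10 stromal markers was 75.5 to 88.8 CPM in WT and 303 to 329 CPM in KO, and that of 9 neutrophil markers was 25.7 to 28.2 CPM in WT and 7.89 to 11.8 CPM in KO. For 8 erythroid markers it was 8.41 to 12.2 CPM in WT and 2.04 to 3.10 CPM in KO. B cell markers summed to 22.0 to 22.9 CPM in WT and 11.1 to 11.9 CPM in KO, and mast cell and basophil markers to 34.5 to 37.2 and 18.9 to 22.9 CPM. Dendritic cell markers summed to 267 to 379 CPM in WT and 391 to 423 CPM in KO, nearly all of it Itgax, which macrophages also express, and to 1.91 to 2.89 and 3.06 to 5.33 CPM without it. Endothelial markers summed to 36.9 to 43.0 CPM in WT and 48.0 to 69.2 CPM in KO, but overlapped without Vwf, at 16.2 to 17.3 and 13.1 to 19.9 CPM. Those of T and NK cells overlapped, at 1.07 to 2.03 CPM in WT and 1.13 to 1.27 CPM in KO. At 0 in all libraries were 2 neutrophil markers and 1 each of the erythroid, endothelial and mast cell lists. In these bulk samples, fewer cells of a type and less RNA per cell cannot be told apart. The median log2 fold change of KO against WT was -0.22 in the 3105 shortest of all tested genes and 0.17 in the 3105 longest, with 8 and 7 members among them. This trend over length lay mostly in the libraries numbered 1, where the medians were -0.34 and 0.35, while for number 2 they were -0.06 and 0.03.

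Levels were compared between genes on the deposited FPKM scale, which counts fragments per kilobase of gene and depth of the library. By FPKM, the most abundant members were Pkm, the pyruvate kinase, with 498 and 510 FPKM in WT and 560 and 507 FPKM in KO, and Pgam1, the phosphoglycerate mutase, with 357 and 339 FPKM in WT and 391 and 343 FPKM in KO. They were followed by Ldha, Aldoa, Pgk1 and Mif, with means over all libraries of 246, 201, 178.5 and 175 FPKM. The spans of neighbours in this order overlapped over the 4 libraries from Ldha on, so their order was not resolved. The ranking also turned on the length used, since by counts per kilobase of annotated exon, scaled like FPKM to library totals, Aldoa came first with a mean of 409, followed by Ldha with 341, Pgam1 with 330.2, Pkm with 270 and Pgk1 with 243. At the other end, the growth-restraint gene Ddit4, the muscle phosphofructokinase Pfkm and the vasodilator peptide gene Adm had means of 1.62, 1.19 and 0.927 FPKM. Per kilobase of annotated exon their means were 1.556, 1.055 and 1.647, so that Pfkm was the lowest. Together the 35 genes took between 0.740% and 0.838% of a library's counts.

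The isoforms of the pathway's entry steps were used unevenly. Among the hexokinases, which trap glucose as glucose 6-phosphate, Hk3 held 87.4% to 90.9% of the summed FPKM of a library, Hk2 held 6.51% to 9.58% and Hk1 held 2.62% to 3.73%. Among the phosphofructokinases, which commit sugar to glycolysis, Pfkl held 36.8% to 55.7%, Pfkp held 36.4% to 60.9% and Pfkm held 2.27% to 7.91%, and the order of Pfkl and Pfkp turned with the replicate number. Pfkl had 11.1 FPKM in WT and 15.6 FPKM in KO for number 1, above Pfkp with 9.14 and 10.2 FPKM, while for number 2 Pfkl had 9.40 and 12.3 FPKM, below Pfkp with 15.5 and 15.8 FPKM. Per kilobase of annotated exon, Hk3 held 91.4% of the hexokinases, and Pfkp held 53.2% and Pfkl 41.8% of the phosphofructokinases. Gapdh, which oxidises glyceraldehyde 3-phosphate, had a mean of 15.5 FPKM, below the steps before and after it, where Tpi1 had 107 and Pgk1 178.5 FPKM. Per kilobase of annotated exon the means were 32.3 for Gapdh, 153 for Tpi1 and 243 for Pgk1. How reads that fit several copies were counted is not stated in the sources used here. The table lists near-identical copies of several members. The largest was Eno1b, with 1543 to 2019 counts beside 2999 to 4136 counts of the enolase gene Eno1, and Pgam1-ps2 had 1163 to 1400 counts. Gapdh-ps14 and Gapdh-ps15 had 1 to 2 counts. The levels of Eno1, Pgam1, Gapdh and other members with such copies are therefore uncertain.

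**Figure D1:**
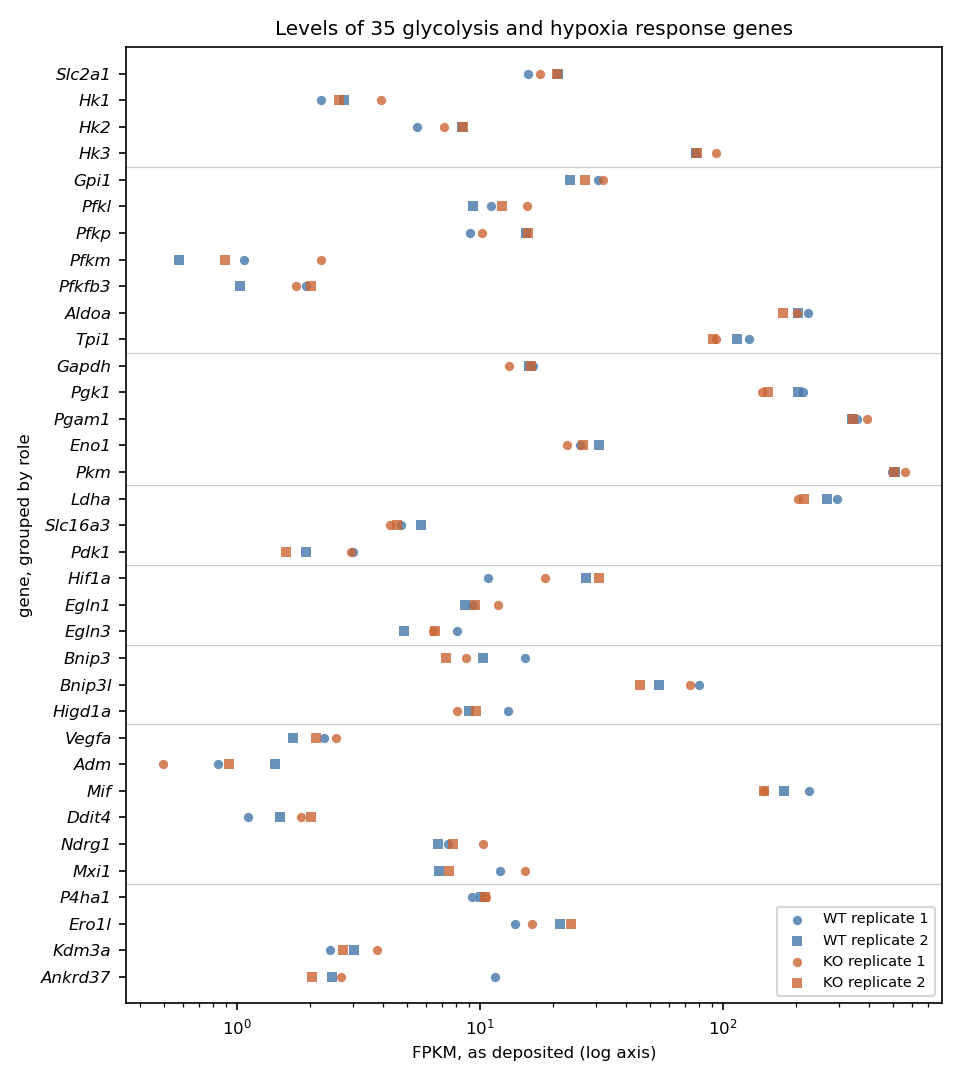
FPKM of each of the 35 genes (rows, grouped by role from glucose uptake at the top to hypoxia targets at the bottom) in the 4 libraries, on a log axis. Circles are replicate 1 and squares replicate 2, blue is WT and orange is KO. The libraries of a gene lie close together beside the range between genes, from 0.499 to 1.44 FPKM for Adm to 498 to 560 FPKM for Pkm, and WT replicate 1 stands apart for Ankrd37.

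The comparison of KO with WT asked which of these genes differed with the loss of G3bp1. In edgeR's quasi-likelihood test, 0 of the 35 members passed both limits of a call, which are 0.05 for the adjusted p and 1 for the size of the log2 fold change, as did 0% of the 12418 genes tested, and adjusted p for the members ran from 0.60 to 0.996. The DESeq2 Wald test and the edgeR exact test called 0 members as well, beside 1.46% and 1.85% of all genes tested. At an unadjusted p under 0.05, 3 members (8.57%) were lower in KO, beside 1.99% of all tested genes, and 0 were higher, beside 4.64% of all. The number of members lower in KO was 0 without WT replicate 1, without KO replicate 1 or without KO replicate 2, beside 1.56%, 0.725% and 1.3% of all genes tested. It was 3 without WT replicate 2, beside 5.95% of all, and these were Bnip3, Mif and Ankrd37 rather than Bnip3, Pgk1 and Ldha. Both KO libraries lay below both WT libraries for 12 members (34.3%), beside 16.9% of all tested genes, and above them for 3 members (8.57%), beside 20% of all. When library totals replaced TMM scaling, the numbers were 7 below (20%), beside 9.39% of all tested genes, and 6 above (17.1%), beside 31.6% of all. The median log2 fold change of the members was -0.07, beside 0.04 over all tested genes. It was -0.20 without WT replicate 2, -0.22 without KO replicate 2, -0.10 without WT replicate 1 and -0.06 without KO replicate 1. The median of all genes also moved with the fit, and was 0.015 without WT replicate 1. In limma on log2(FPKM + 1) the members had 0.08, beside 0.11 over all genes. Taken within a replicate number, KO against WT had a median log2 ratio of -0.09 for number 1, where that of all tested genes was 0.11, and -0.07 for number 2, where that of all was 0.00. The ratio was negative within both numbers for 18 members, positive within both for 8 and of opposite sign for 9, where of all 12418 tested genes 3605 were negative in both, 4469 positive in both and 4344 of opposite sign.

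The 12 members with both KO libraries below both WT libraries were mostly enzymes of the middle and end of glycolysis: Aldoa, Tpi1, Gapdh, Pgk1, Pgam1, Eno1, Pkm, Ldha and the lactate exporter gene Slc16a3, with Bnip3, Mif and Ankrd37 among the hypoxia targets. The 3 with both KO libraries above were Pfkl, Ndrg1 and Ddit4, of which Pfkl and Ddit4 stayed with DESeq2 size factors (2 members, 5.71%, beside 17.4% of all tested genes) and Ddit4 with a length correction, an offset that removes the trend over gene length (1 member, 2.86%, beside 13.8%). The lower part of the pathway, from Gapdh to Pkm, was in the first group with 5 of 5 genes, beside 16.9% of all tested genes. Its median log2 fold change was -0.28, and its median ratio was -0.40 within number 1 and -0.09 within number 2. When 1 library was left out, Gapdh ran from -0.54 to -0.06, Pgk1 from -0.77 to -0.50 and Eno1 from -0.555 to -0.16. Pgam1 ran from -0.14 to -0.05 and Pkm from -0.10 to -0.06. With library totals in place of TMM scaling only Pgk1 of these 5 stayed below, beside 9.39% of all tested genes. With the length correction 3 of 5 did (Gapdh, Pgk1 and Eno1), beside 20.9% of all. Pgam1 and Pkm turned to 0.07 and 0.08 in limma on log2(FPKM + 1), and Pgam1 to 0.07 with the length correction. The other 6 members below under library totals were Aldoa, Tpi1, Ldha, Slc16a3, Bnip3 and Mif, so that Ankrd37 overlapped. The genes of glucose uptake and trapping had 0 of 4 in either group, beside 16.9% of all tested genes below and 20% above, and a median of 0.01. Hk3, however, lay above under library totals, as did 31.6% of all, and below with the length correction, as did 20.9%.

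**Figure D2:**
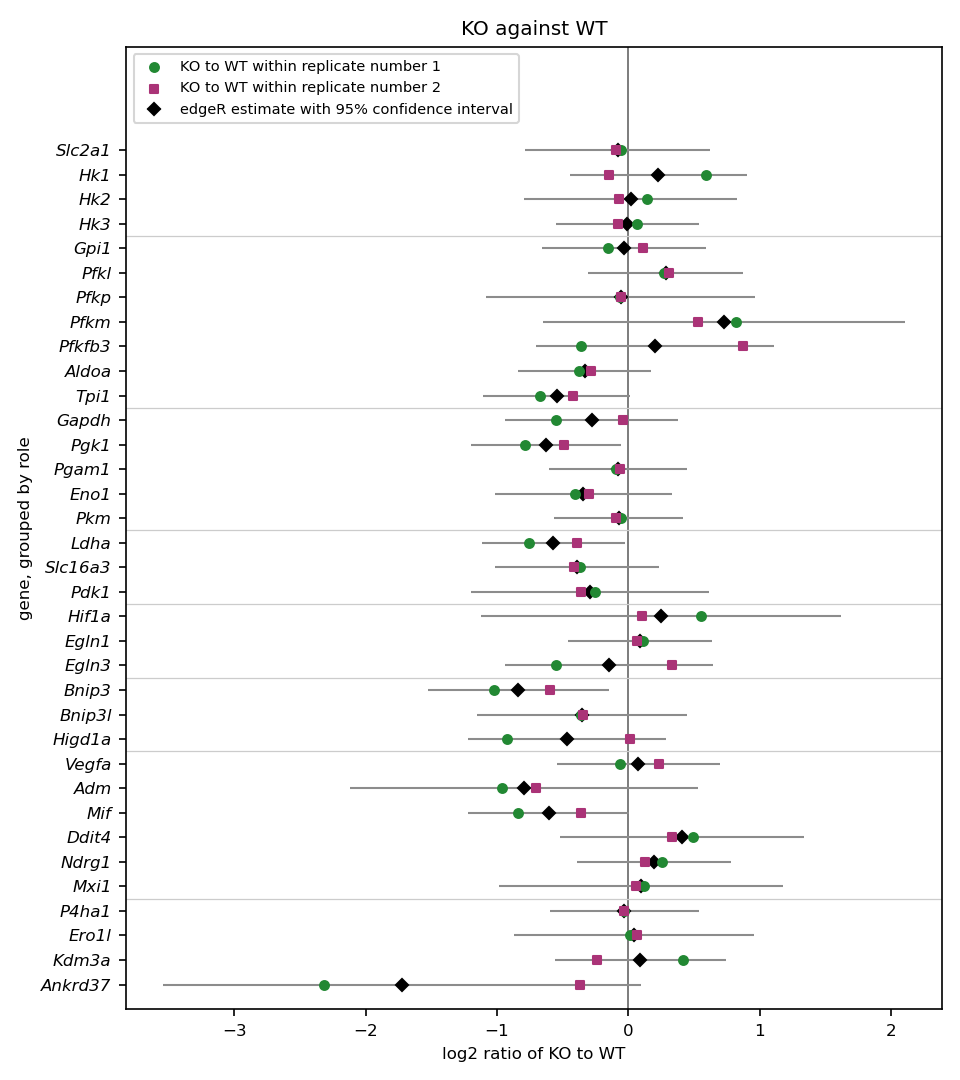
Log2 ratio of KO to WT (x axis) for the 35 genes in order of role. Black diamonds with bars are the edgeR estimates with 95% confidence intervals, green circles and purple squares the ratios within replicate numbers 1 and 2. Intervals of Pgk1, Ldha and Bnip3 lie below 0 before adjustment for the number of genes, and the 2 ratios lie far apart for Ankrd37, at -2.32 and -0.37.

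Pgk1 encodes phosphoglycerate kinase, the first enzyme of the pathway to make ATP (ENSMUSG00000062070, chromosome X, 106187100 to 106203699). It was counted 11019 and 10509 times in the WT libraries, against 7351 and 9272 times in those of KO, which is 669 ± 14.0 CPM against 433 ± 54.2 CPM (SD over n = 2 libraries). Both KO libraries were low, and the genotypes did not overlap. On the log2 scale, KO differed from WT by -0.63 (SE 0.23, 95% confidence interval -1.20 to -0.06), where the quasi-likelihood test of edgeR gave an unadjusted p of 0.0364 and, adjusted, 0.676. The ratio was -0.78 for the libraries numbered 1 and -0.49 for those numbered 2. Over the ways of processing tried, the value ran from -0.77 to -0.48, and it was -0.64 with the length correction.

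Ldha encodes the lactate dehydrogenase subunit that favours lactate (ENSMUSG00000063229, chromosome 7, 46841475 to 46855627). Its WT libraries held 23004 and 20862 counts, those of KO 15653 and 19607, which is 1364 ± 77.0 CPM against 918 ± 110 CPM (SD over n = 2 libraries). The pattern over the libraries was that of Pgk1, with KO replicate 1 the lowest. On the log2 scale, KO differed from WT by -0.57 (SE 0.21, 95% confidence interval -1.11 to -0.03), with an edgeR unadjusted p of 0.0425 and adjusted p of 0.704, and the log2 ratios within the numbers were -0.76 and -0.39. Downstream of Ldha, the exporter gene Slc16a3 had 43.3 and 53.4 CPM in WT and 33.6 and 40.1 CPM in KO, with a log2 fold change of -0.39 (SE 0.25). Pdk1, whose product keeps pyruvate out of the mitochondrial oxidation route, had a log2 fold change of -0.29 (SE 0.36), and its libraries overlapped.

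In the first steps of the pathway, the values were close to 0. The glucose transporter gene Slc2a1 had 1403 and 1850 counts in the WT libraries, against 1548 and 2138 in those of KO, and its log2 value was -0.08 (SE 0.28, 95% confidence interval -0.78 to 0.62). Hk1 had 466 and 578 counts in the WT libraries, against 809 and 645 in those of KO, and its log2 value was 0.23 (SE 0.27), which was 0.59 within number 1 and -0.15 within number 2. For Hk3, the main hexokinase, the 4 libraries lay between 477 and 513 CPM, and the 95% confidence interval of the log2 fold change was -0.55 to 0.54. In upper glycolysis, Pfkm had the highest value, with 54 and 29 counts in the WT libraries, against 110 and 52 in those of KO and a log2 fold change of 0.73 (SE 0.54), which was 0.04 without KO replicate 1, and Tpi1, the triosephosphate isomerase, had the lowest. Tpi1 had 8599 and 7651 counts in the WT libraries, against 6210 and 7062 in those of KO, and its log2 value was -0.55 (SE 0.22, edgeR unadjusted p = 0.0548). For Tpi1 the KO libraries, at 333 and 359 CPM, were below the WT libraries at 530 and 480 CPM. Aldoa, the aldolase of the step before Tpi1, had -0.33 (SE 0.20) on the log2 scale. Pfkfb3, which makes the activator of phosphofructokinase, had 0.20 (SE 0.36), with ratios of -0.36 and 0.87 within the numbers.

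The mitophagy receptor gene Bnip3 had the lowest unadjusted p of the set (ENSMUSG00000078566, chromosome 7, 138890836 to 138909519). It was counted 820 and 553 times in the WT libraries, against 463 and 451 times in those of KO, which is 42.6 ± 11.2 CPM against 23.9 ± 1.37 CPM (SD over n = 2 libraries). The KO libraries were close to each other and both below the lower WT library. On the log2 scale, KO differed from WT by -0.84 (SE 0.27, 95% confidence interval -1.53 to -0.15), with an edgeR unadjusted p of 0.0261 and adjusted p of 0.60, and the value shrank to -0.54 when WT replicate 1 was left out and was -1.12 when WT replicate 2 was. With the replicate number as a term of the model, Bnip3 had an adjusted p of 0.0130 at a log2 fold change of -0.81, under the fold limit of a call. Its relative Bnip3l, also a mitophagy receptor gene and more abundant, had 430 and 298 CPM in WT and 335 and 235 CPM in KO, and a log2 fold change of -0.35 (SE 0.32). Here the genotypes overlapped, and the ratios within the numbers were -0.36 and -0.35, but leaving out 1 library moved the value of Bnip3l between -0.63 (without KO replicate 1) and -0.07 (without WT replicate 1). Higd1a, a small mitochondrial protein gene, had -0.47 (SE 0.30), from a ratio of -0.93 within number 1 and 0.01 within number 2.

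Ankrd37, a compact HIF target that encodes an ankyrin repeat protein (ENSMUSG00000050914, chromosome 8, 45996902 to 45999867), had the lowest log2 fold change of the set. Ankrd37 had 566 and 121 counts in the WT libraries, against 130 and 116 in those of KO, or 34.9 and 7.59 CPM in WT and 6.98 and 5.89 CPM in KO. WT replicate 1 stood above the other 3 libraries, which lay close together. On the log2 scale, KO differed from WT by -1.72 (SE 0.72, 95% confidence interval -3.54 to 0.10, edgeR adjusted p = 0.790), and it was -0.24 without WT replicate 1. With the replicate number as a term of the model, 1 of the 35 members was called lower, beside 1.37% of all tested genes, and 0 were called higher, beside 3.98%. The gene called was Ankrd37, with a log2 fold change of -1.40 and an adjusted p of 6.86e-06, although the ratio within number 2 was -0.37. With the length correction added to that fit its adjusted p was 0.0657, and the number of members called was 0.

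**Figure D3:**
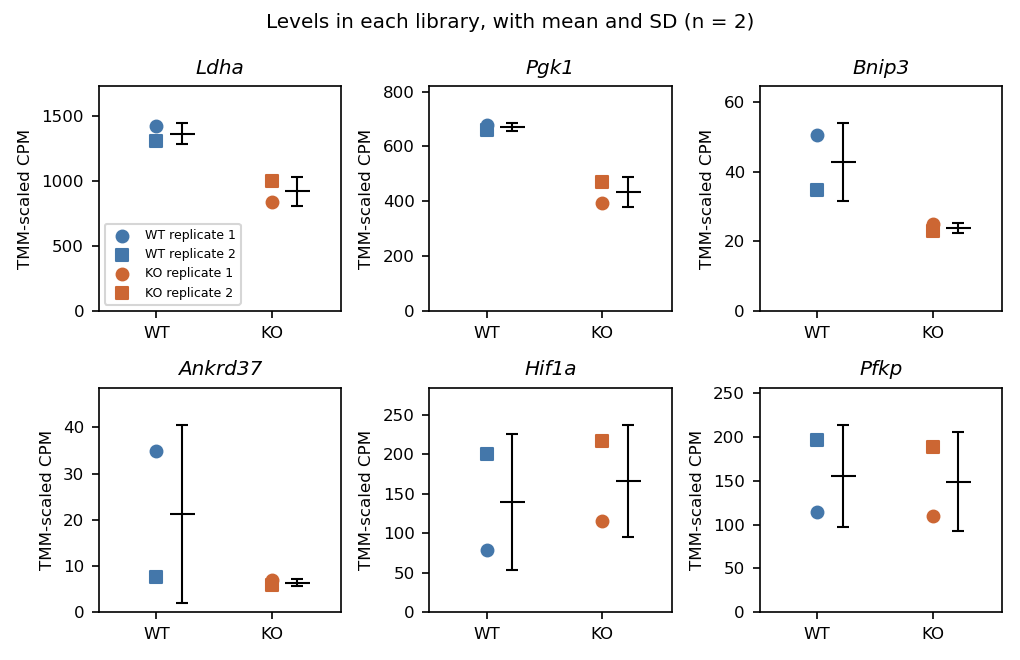
TMM-scaled CPM (y axes, starting at 0) of 6 genes in each library of WT (blue) and KO (orange), circles for replicate 1 and squares for replicate 2, with the mean and SD of each genotype beside the points. Ldha, Pgk1 and Bnip3 were lower in both KO libraries, Ankrd37 was high in WT replicate 1, and Hif1a and Pfkp differed between the replicates of both genotypes.

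The oxygen-sensing genes gave no difference beyond the spread of the libraries. Hif1a, which encodes the oxygen-regulated HIF subunit, had 1278 and 3202 counts in the WT libraries, against 2161 and 4262 in those of KO, and its log2 value was 0.25 (SE 0.54, 95% confidence interval -1.12 to 1.62), which turned to -0.27 when WT replicate 1 was left out and to -0.28 when KO replicate 2 was. Egln1, the main prolyl hydroxylase gene, had 34.7 and 32.3 CPM in WT and 37.4 and 33.8 CPM in KO, a narrow span with a log2 fold change of 0.09 (SE 0.22, 95% confidence interval -0.46 to 0.64). Egln3, a hydroxylase gene that HIF itself induces, had 364 and 220 counts in the WT libraries, against 285 and 343 in those of KO, and the sign of its ratio differed by number, -0.55 for number 1 and 0.34 for number 2.

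Among secreted factors, Mif, a cytokine gene, had 131 and 105 CPM in WT and 73.4 and 82.0 CPM in KO, without overlap, and a log2 fold change of -0.60 (SE 0.24, edgeR unadjusted p = 0.0520). Vegfa, the vessel growth factor gene, had 24.8 and 18.8 CPM in WT and 23.8 and 22.1 CPM in KO, giving a log2 fold change of 0.07 (SE 0.24, 95% confidence interval -0.55 to 0.69). Adm had only 41 and 70 counts in the WT libraries, against 24 and 53 in those of KO, and its log2 fold change of -0.79 (SE 0.52) was accordingly imprecise. It ran from -1.43 to -0.36 when 1 library was left out. Ddit4, an inhibitor of mTORC1 signalling, had 32 and 43 counts in the WT libraries, against 52 and 67 in those of KO, with a log2 fold change of 0.41 (SE 0.36). Ndrg1, a stress-responsive gene, had 0.20 (SE 0.23), and Mxi1, an antagonist of Myc, had 0.10 (SE 0.43). Mif had the shortest length implied by its FPKM among the members, 554 bases, and its log2 fold change was -0.06 with the length correction.

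The remaining hypoxia targets lay near 0. Kdm3a, a histone demethylase gene, had 538 and 670 counts in the WT libraries, against 827 and 703 in those of KO, and a log2 fold change of 0.09 (SE 0.26). P4ha1, a subunit of the collagen prolyl hydroxylase, had 63.6 and 70.2 CPM in WT and 62.2 and 68.7 CPM in KO, with a log2 fold change of -0.03 (SE 0.22). Ero1l, an oxidase of the endoplasmic reticulum, had 0.05 (SE 0.36), and its libraries differed by number and hardly by genotype.

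For several members the libraries differed more between the replicate numbers than between the genotypes. What the numbers mark is not given in the labels. Both libraries numbered 2 lay above both numbered 1 for 7 members (20%), beside 25.2% of all tested genes, and below them for 7 others (20%), beside 23.2%. The shares were thus near those of all genes. Those higher in number 2 were Hif1a, Pfkp, Adm, Ero1l, Hk2, Slc2a1 and P4ha1. Hif1a had log2 ratios of number 2 to number 1 of 1.35 in WT and 0.90 in KO, and Pfkp had 0.79 in both. Those lower in number 2 were Pfkm, Mxi1, Pdk1, Bnip3l, Gpi1, Vegfa and Egln1. Mxi1 had log2 ratios of -0.82 in WT and -0.88 in KO, and Pdk1 had -0.62 and -0.72. By contrast, Pkm, Aldoa and Pgam1 had log2 ratios of number 2 to number 1 between -0.12 and 0.05 in both genotypes.

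**Figure D4:**
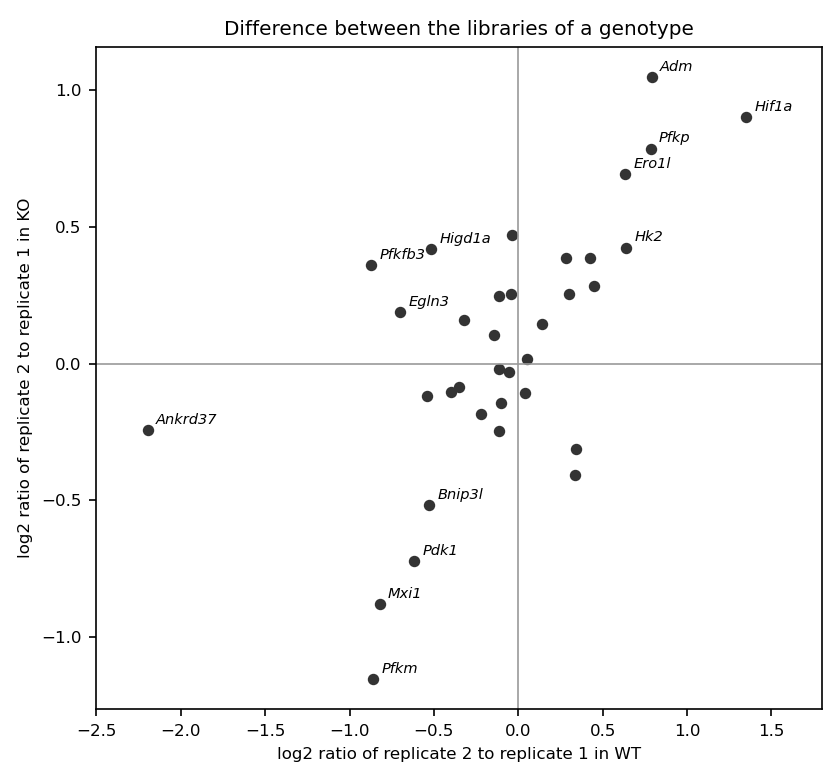
Log2 ratio of replicate 2 to replicate 1 in WT (x axis) and in KO (y axis), 1 point per gene for the 35 genes. Hif1a, Pfkp, Adm and Ero1l lie at the upper right and Pfkm, Mxi1, Pdk1 and Bnip3l at the lower left, so that these genes differed the same way in both genotypes, while Ankrd37 lies at -2.19 in WT and -0.24 in KO.

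Further genes of these pathways were taken from 5 lists, also chosen with earlier results of these data known. In the quasi-likelihood test 0 genes were called in each list. Of 25 further glycolysis genes, 19 were tested, with 16 above 0 (84.2%), beside 54.6% of all tested genes, and a median log2 fold change of 0.19. The 12 tested genes of pyruvate entry and the 8 of the pentose phosphate route had medians of 0.05 and -0.07. The 8 tested genes of the oxygen-sensing machinery had a median of 0.06. Of 34 further hypoxia targets, 31 were tested, with a median of -0.10, and 4 were higher (12.9%, beside 4.64% of all tested genes) and 1 lower (3.23%, beside 1.99%) in KO at an unadjusted p under 0.05. With the replicate number as a term, 4 of these hypoxia targets were called higher, beside 3.98% of all, and 1 lower, beside 1.37%, and 0 genes were called in the other 4 lists.

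The genes lower in KO with the smallest p in these lists were Hilpda and Aldoc. Hilpda, an inhibitor of lipolysis that coats lipid droplets, was counted 3403 and 2793 times in the WT libraries, against 1315 and 1669 times in those of KO, which is 192.5 ± 24.4 CPM against 77.7 ± 10.1 CPM (SD over n = 2 libraries). The KO libraries were far below those of WT, by -1.57 on the log2 scale for number 1 and by -1.05 for number 2. On the log2 scale, KO differed from WT by -1.31 (SE 0.25), with an edgeR adjusted p of 0.276. With the replicate number as a term the edgeR adjusted p was 1.23e-06. That fit called 664 of all genes against 0 without the term, and the labels do not say what a number marks. Aldoc, an aldolase isoform, had 228 and 207 counts in the WT libraries, against 121 and 158 in those of KO, and its log2 value was -0.90 (SE 0.27, edgeR adjusted p = 0.519). Next came Rbx1, a subunit of the ligase that degrades HIF, with -0.64 (SE 0.32), from a ratio of -1.13 within number 1 and -0.08 within number 2.

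The genes higher in KO with the smallest p were Anln, Plod2 and Loxl2. Plod2 and Loxl2 encode enzymes that modify and cross-link collagen, and Anln encodes a protein of cell division. Plod2 had 84 and 84 counts in the WT libraries, against 291 and 253 in those of KO, and its log2 value was 1.44 (SE 0.27, edgeR adjusted p = 0.276). Loxl2 had 18 and 27 counts in the WT libraries, against 84 and 57 in those of KO, and its log2 value was 1.40 (SE 0.44). Anln had 47 and 55 counts in the WT libraries, against 252 and 221 in those of KO, and its log2 value was 1.96 (SE 0.30, edgeR adjusted p = 0.25). With the replicate number as a term, Anln, Plod2 and Loxl2 were called, with edgeR adjusted p of 1.84e-09, 4.61e-06 and 0.00506. These genes moved with the stromal markers, of which 9 of 10 were tested and 9 lay above 0 at a median log2 fold change of 2.07, and with the proliferation markers, of which 8 of 9 lay above 0 at a median of 0.83, although their summed level overlapped, at 337 to 486 CPM in WT and 353 to 380.5 CPM in KO. Without Pcna, the one proliferation marker below 0, the sums were 48 to 65.5 CPM in WT and 107 to 120.0 CPM in KO. The part of these markers in the result was not tested.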

How the data were processed

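RNA libraries of 2 WT and 2 KO macrophage samples were sequenced on an Illumina instrument. The authors aligned and assembled the reads with HISAT2 2.0.4 and StringTie 1.3.3b, per the submitters' processing notes, and deposited raw read counts per gene and FPKM values. The settings for strand and multi-mapping reads are not given in the sources used here. The labels name mm39, but 27686 of the 34267 genes matched by ID to GENCODE M21, and 24 of the 35 members, had the same span on GRCm38, so the coordinates printed are the deposited ones, read as GRCm38.

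The counts were tested in R 4.3.3 with edgeR 4.0.16 (filterByExpr with a minimum count of 10, TMM scaling, quasi-likelihood test on genotype, two-sided). P-values were adjusted by Benjamini-Hochberg over all 12418 tested genes, and a call needed an adjusted p below 0.05 together with a log2 fold change of size above 1. Ratios within a number or genotype were taken from scaled counts with 0.5 added. Alternatives used DESeq2 1.42.0, limma 3.58.1 on log2(FPKM + 1) or log2(FPKM + 0.1) for genes at 0.1 FPKM or more in 2 libraries, other filters and scalings, a term for the replicate number, a loess offset for gene length (span 0.5), and each library left out in turn. The scripts were tested on simulated data. Levels between genes were compared by FPKM.

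The members and lists were chosen with earlier results of these data known. Counts in every library were given for the members with the largest log2 fold change of each direction in a role group and for those with an unadjusted p under 0.05 or called with the replicate number, and outside the members for up to 3 genes per direction with the smallest p.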

Additional observations from a re-analysis of the deposited data

How the results depend on the processing

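The number of members called was 0 in every alternative except the fit with the replicate block, where it was 1 (Ankrd37). Over all genes the calls were 0 in the quasi-likelihood test, 664 with the block, 401 with the block and the length offset, 181 in the DESeq2 Wald test, 230 in the edgeR exact test and 2 in limma on log2(FPKM + 0.1). The samples share only a number. With 2 pairs, the deviations of same-numbered libraries correlated at 0.692 over all genes, and the labels do not say what a number marks.

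The members' median log2 fold change of -0.07 ran from -0.215 to -0.062 when a library was left out, and was 0.081 in limma with either pseudocount, -0.17 with the length offset and -0.17 with the replicate block and length offset. The median of all genes was 0.04, and 0.11 and 0.18 in limma with a pseudocount of 1 and 0.1, so members were read relative to it. The number lower in KO at an unadjusted p under 0.05, an alternative set added after seeing the data, was 3 (1.99% of all genes), and became 5 with DESeq2 size factors (2.3% of all), 7 with the replicate block (9.37%), 6 in the Wald test (2.75%), 0 in limma with either pseudocount (1.55%), 5 with the length offset (2.54%), 12 with the block and the offset (11.1%), and 0 to 3 when a library was left out. The number with both KO libraries below both WT libraries was 12, and 7 with library totals (9.39% of all genes), 13 with DESeq2 size factors (19%, Higd1a joined) and 11 with the length offset (20.9%, where Pgam1, Pkm and Mif left and Hk3 and P4ha1 joined), also added after seeing the data, as were the marker sums without their most abundant gene. The cause was not tested.

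Of the 35 members, 18 kept their sign in all 14 alternatives. Hk2 was -0.016 with DESeq2 size factors and in the Wald test. In limma on log2(FPKM + 1) the sign turned for Slc2a1 (0.072), Hk3 (0.144), Gpi1 (0.128), Pfkp (0.086), Pgam1 (0.073), Pkm (0.081), Egln3 (0.033) and P4ha1 (0.111), and with 0.1 added in their place the values were 0.076, 0.146, 0.133, 0.093, 0.073, 0.081, 0.043 and 0.121. With the length offset it turned for Hk1 (-0.023), Hk2 (-0.119), Pfkfb3 (-0.13), Pgam1 (0.065), Vegfa (-0.164), Mxi1 (-0.041), Ero1l (-0.047) and Kdm3a (-0.167), and with the replicate block and length offset the values were -0.029, -0.113, -0.058, 0.062, -0.141, -0.037, -0.055 and -0.169. Leaving out a library turned the sign for Hk2 (-0.27 to 0.34), Gpi1 (-0.23 to 0.16), Pdk1 (-0.70 to 0.05), Hif1a (-0.28 to 1.04), Egln3 (-0.49 to 0.25), Ero1l (-0.35 to 0.36), Kdm3a (-0.072 to 0.24), Slc2a1 (-0.29 to 0.11), Pfkp (-0.51 to 0.35), Pfkfb3 (-0.20 to 0.71), Vegfa (-0.15 to 0.29), Mxi1 (-0.41 to 0.56), P4ha1 (-0.11 to 0.042) and Hk3 (-0.058 to 0.039).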
